A study of Populus yunnanensis with 9 samples.

Results

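Cadmium (Cd) treatment of poplar leaves was compared with the untreated control (CK) across all genes, in 6 of the 9 RNA sequencing libraries of the series. The members are the 3 libraries whose labels give added Cd and no added nitrogen, and the 3 whose labels give no agent. The leaves came from Yunnan poplar (Populus yunnanensis) seedlings of 4 months, grown from 72 cuttings of 15 trees in 24 pots with 3 cuttings and 15 kg of dry soil each. The Cd group received 40 mg Cd per kg of soil every 5 d for 60 d, up to 480 mg per kg, and CK received none. The fourth to sixth leaf from the apex was taken. The remaining 3 libraries had the same Cd and 360 mg N per kg (Cd + N). Here they enter the choice of genes tested, the scaling of the counts and the estimate of the spread, and are shown beside the other groups. The labels number the libraries 1 to 3 in each group, without saying which tree or pot a library came from or whether plants were pooled. The p-values therefore measure the spread between these libraries, whatever its source.

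Cd is a metal with no known use in most plants. It enters roots through carriers of essential metals, is bound in cells by thiol peptides such as glutathione and the phytochelatins made from it, and is moved into the vacuole by transporters. In leaves it is known for oxidative damage, loss of chlorophyll and lower photosynthesis. The data list 41335 genes by identifier alone, and no annotation was used here that pairs the identifiers with names. Genes of these pathways could therefore not be picked out, nor could the leaf be checked by its marker genes. The account below is by numbers of genes, by level and by library, with 4 genes given by identifier.

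The libraries held 31952278 to 40101176 counts on genes, and 30546 to 31289 genes had at least one count in each of the 6. The genes tested were the 27378 that passed a filter on low counts. Levels are given as CPM, counts scaled to the size of the library, with TMM factors that correct for a shift shared by most genes. The distance of a pair of libraries is the root mean square, over these genes, of their differences in log2 CPM.

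Cd replicate 1 stood apart from the other Cd libraries and lay near CK replicates 1 and 3. It was 0.71 from CK replicate 1 and 0.75 from CK replicate 3, but 1.19 and 1.06 from Cd replicates 2 and 3. Cd replicates 2 and 3 were 0.78 apart and lay between 1.00 and 1.21 from every CK library. CK replicates 1 and 3 were the closest of the 15 pairs, at 0.60, whereas CK replicate 2 was 0.87 and 0.94 from them. In numbers of genes, 2926 differed at least 2-fold between Cd replicate 1 and CK replicate 1, and 6402 between Cd replicates 1 and 2. The same count ran from 4954 to 6516 between either of Cd replicates 2 and 3 and any CK library. Cd replicate 1 and CK replicate 2 fell within both ranges, at a distance of 1.01 and with 5032 genes. The groups thus overlapped as a whole through 1 Cd library. Among the 6, that library had the lowest total count, 31952278, and the highest share of counts in its 50 most abundant genes, 15.1% against a median of 12.6% in CK and 9.29% and 10.3% in the other Cd libraries. The part of these in its place near CK replicates 1 and 3 was not tested. In whole leaves, a change in the cells present and a change in RNA per cell cannot be told apart.

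**Figure D1:**
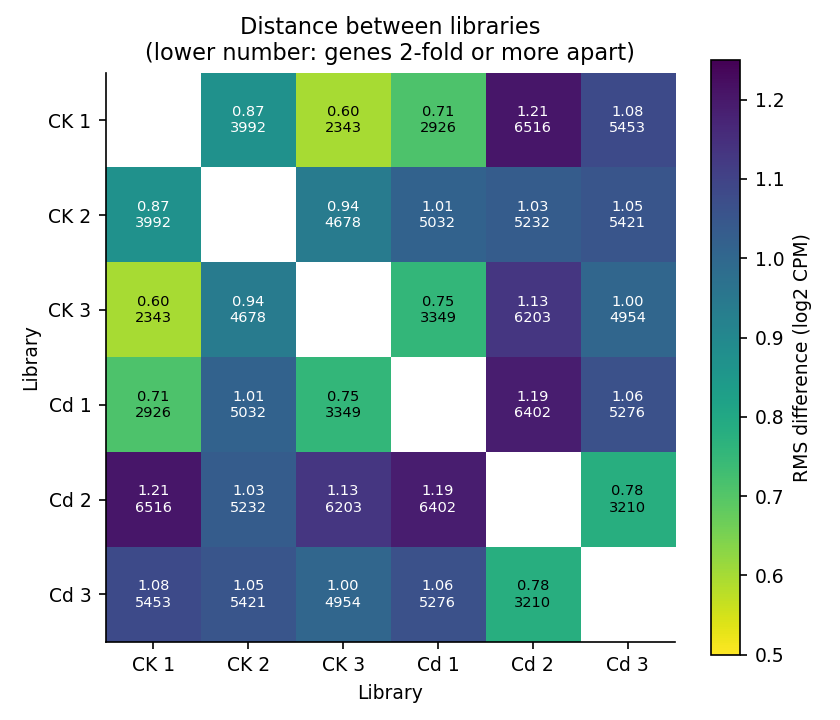
Distance in log2 CPM (root mean square over genes) between each pair of the 6 libraries (colour and upper number) and the number of genes at least 2-fold apart (lower number). Cd replicate 1 is 0.71 and 0.75 from CK replicates 1 and 3, and 1.01 from CK replicate 2. Cd replicates 2 and 3 are 0.78 from each other and at least 1.00 from every other library.

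Along the first principal component, which held 47.6% of the variation among the 6 libraries, Cd replicates 2 and 3 lay at 0.68 and 0.48. Cd replicate 1, at -0.38, lay between CK replicates 1 and 3 at -0.44 and -0.33. The second component, with 22.3%, set CK replicate 2 at -0.62 apart from the rest, which ran from -0.02 to 0.27. Cd replicate 1 did not hold an unusual number of outlying genes of its own. In 504 genes it was the highest or lowest library by at least 2-fold, against 837 genes for Cd replicate 2, 722 for CK replicate 2 and 189 for CK replicate 1. Group membership accounted for 28.1% of the squared distance among the 6 libraries (one-sided exact permutation p = 0.2, where 10 splits allow no p below 0.1). Without Cd replicate 1 it accounted for 49.9% (exact permutation p = 0.1, the smallest that 10 arrangements can give). That library was left out because it lay near CK, which favours a larger share. The 49.9% and its p are therefore a description and no evidence for an effect of Cd. Neither design can reach 0.05.

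With all 3 Cd libraries set against CK, the number of genes past the threshold depended on the test, and edgeR's was 0. Its quasi-likelihood test on the 9 libraries called 0 of 27378 genes at an adjusted p under 0.05 (0%), with a smallest adjusted p of 0.184. At an unadjusted p under 0.05, 2706 genes (9.88%) differed, 1533 (5.6%) higher in Cd and 1173 (4.28%) lower. Evenly spread p-values would put 5% of the genes there, or 1369. DESeq2 called 627 genes, 388 higher and 239 lower, and limma-voom called 0. The 627 were 1.8% of the 34772 genes with a DESeq2 p-value. DESeq2 adjusts only genes past its own filter on low counts, so the share among those was higher and was not worked out. Limma-voom with a weight for each library called 2811, 1303 higher and 1508 lower.

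Without Cd replicate 1, edgeR called 499 of 27941 genes (1.79%), of which 270 (0.966%) were up-regulated and 229 (0.82%) down-regulated, with a smallest adjusted p of 0.0122. At an unadjusted p the count rose to 5843 (20.9%). The library was left out because of its values, so this count describes Cd replicates 2 and 3 against CK and is no independent evidence for an effect of Cd. The count rested on most of the other libraries too. With Cd replicate 1 and a further library left out, it was 1 when that was CK replicate 1, 21 for CK replicate 3, 5 for Cd replicate 2 and 1 for Cd replicate 3. Without CK replicate 2 there were 423, and 248 of the 499 were found again, but down-regulated genes then prevailed, 264 against 159 up-regulated. With a single Cd library left, that library is assumed to vary like the other groups.

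Fold changes were small for most genes. The log2 fold change of Cd against CK had a median of 0.01, and the middle 50% of genes lay between -0.23 and 0.26. The median standard error was 0.28, larger than the median size of the change, 0.24. At least 2-fold, 1757 genes were higher and 1259 lower in Cd, together 11.0% of those tested, and at least 4-fold, 584 were higher and 286 lower. Without Cd replicate 1 the middle 50% widened to between -0.36 and 0.33, and 17.4% of the genes differed at least 2-fold, 2088 higher and 2676 lower. The excess of higher genes at this fold thus turned into an excess of lower ones when that library was left out.

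**Figure D2:**
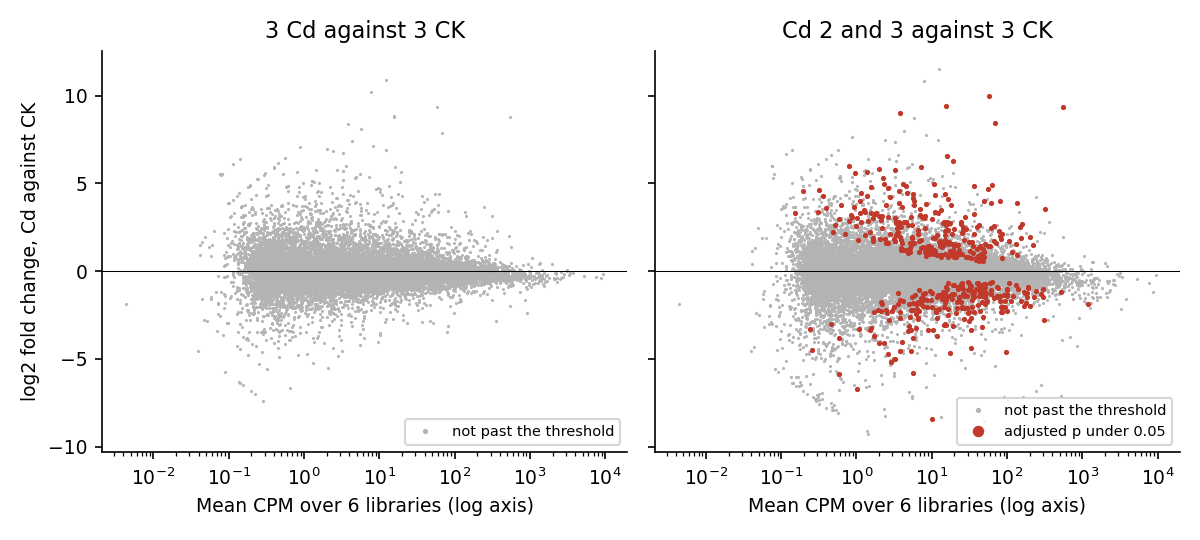
Log2 fold change of Cd against CK for each gene of the 27378 against its mean CPM over the 6 libraries (log axis), from the fit with all 3 Cd libraries (left) and without Cd replicate 1 (right). Red points are the genes past the threshold, 0 on the left and 492 on the right, since 7 of the 499 were not among these genes.

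The spread of fold changes varied with level. Among the 4176 genes with a mean under 1 CPM, 30.7% differed at least 2-fold with a median standard error of 0.70, whereas among the 12841 genes between 10 and 100 CPM 3.71% did, with a standard error of 0.18. Genes past the threshold without Cd replicate 1 were found at each level. They made up 0.551% of genes under 1 CPM, 2.11% of those from 1 to 10 CPM, 1.96% of those from 10 to 100 CPM and 2.03% of the 1871 genes at 100 CPM or more.

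The 1871 most abundant genes had a median log2 fold change below that of all genes, -0.11 against 0.01, and -0.18 against 0.01 without Cd replicate 1. Without Cd replicate 1, 357 of them were lower and 79 higher at an unadjusted p under 0.05, and 26 were down-regulated and 12 up-regulated at an adjusted p. These genes took 53.9%, 52.8% and 51.9% of the counts in CK replicates 1, 2 and 3, and 55.0% in Cd replicate 1. They took 45.8% and 47.6% in Cd replicates 2 and 3. The share in Cd replicate 1 was thus above all 3 CK libraries, and those of the other Cd libraries were below them. In Cd + N it was 50.8%, 46.3% and 50.6%. From the mean log2 CPM of each group, the median of the abundant genes without Cd replicate 1 was -0.19 with TMM, upper-quartile and DESeq2 factors alike. With library totals alone all genes shifted up by 0.17 without Cd replicate 1, and the abundant genes were at -0.02, still 0.19 below all genes.

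The largest fold changes often rested on 1 library. Of the 584 genes at least 4-fold higher in Cd, 486 had more than 50% of the summed CPM of the Cd group in a single library, and 151 had more than 80%. That library was Cd replicate 2 in 98 of the 151, Cd replicate 1 in 32 and Cd replicate 3 in 21. Of the 286 genes at least 4-fold lower, 173 had more than 50% of the summed CPM of CK in a single library, and 36 had more than 80%. Many were near the floor, with a mean under 1 CPM in 246 of the 584 higher and 165 of the 286 lower genes. The gene with the largest rise had 0, 0 and 1 counts in CK and 0, 2776 and 30 counts in Cd replicates 1, 2 and 3, and its unadjusted p by edgeR was 0.0223. The gene with the largest fall had 27, 33 and 0 counts in CK and 0 in each Cd library, so its groups met at 0. The groups did not overlap in 169 of the 286 genes at least 4-fold lower in Cd (59.1%). They did not overlap in 263 of the 584 higher genes (45.0%) and in 14.7% of all genes tested. Both sets were chosen by fold change, which favours groups that do not overlap. No gene had 0 counts in one group and at least 10 in every library of the other.

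The groups did not overlap in 14.7% of the genes tested, with all 3 Cd libraries above the 3 CK libraries in 2014 (7.36%) and below them in 2023 (7.39%). With 3 libraries a group, some genes separate in this way without any effect of treatment, and this share was not tested. Most of these gaps were narrow. The median distance between the nearest libraries of the groups was 0.13 on the log2 scale in the first set and 0.11 in the second, and it reached 2-fold in 99 genes of each. Cd replicate 1 was the Cd library nearest to CK in 57.6% of the higher and 57.8% of the lower genes. Set against CK alone, Cd replicates 2 and 3 were both above it by at least 2-fold in 582 genes and both below it in 605.

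In those 582 genes the median was 0.575, 0.715 and 0.813 CPM in CK replicates 1 to 3, and 5.66 and 4.90 CPM in Cd replicates 2 and 3. It was 1.06 CPM in Cd replicate 1, above the 3 CK medians and far below those of Cd replicates 2 and 3. The gene's level in Cd replicate 1 was above CK in 298 of them (51.2%), within the CK range in 205 and below it in 79 (13.6%), where over all genes tested it was above CK in 25.5% and below it in 23.9%. In the 605 lower genes the median was 4.81, 3.33 and 4.68 CPM in CK and 0.663 and 0.664 CPM in Cd replicates 2 and 3. Cd replicate 1, at 3.50 CPM, lay within the range of the CK medians. It was below CK in 246 genes (40.7%), within it in 205 and above it in 154 (25.5%). Both sets were chosen by their distance from these CK libraries, so the shares are a description.

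The 499 genes called without Cd replicate 1 had log2 fold changes from 0.60 to 9.97 in size, with a median of 1.85. Of these, 233 changed at least 4-fold and 66 less than 2-fold. The up-regulated genes had the larger changes, with a median of 2.13 against 1.67 for the down-regulated, and the lower levels, with a median of 9.73 against 22.7 CPM. Their identifiers were spread over all 19 chromosome numbers that the identifiers carry, from 1.28% of the genes tested on number 3 to 2.37% on number 12. Among the 26936 pairs of tested genes with neighbouring identifiers, 37 had both genes past the threshold, and both moved the same way in 33 of them, 15 up-regulated and 18 down-regulated. How many such pairs would arise by chance was not worked out, and reads shared between neighbours were not examined. The gene length recovered from the FPKM values had a median of 1632 bases in the up-regulated, 2139 in the down-regulated and 1710 in all genes tested.

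Cd replicate 1 took no part in choosing these genes, but it was left out because it lay near CK. Its level in them is therefore no independent measurement. The levels of the other Cd libraries and of CK made the choice and are a description. Of the 499, 492 were also tested on 9 libraries, 263 higher and 229 lower. In the 263, the median difference from the CK mean was 2.03 and 2.01 on the log2 scale in Cd replicates 2 and 3, and 0.32 in Cd replicate 1. In the 229 it was -1.65 and -1.63 in Cd replicates 2 and 3, and -0.09 in Cd replicate 1. The medians of the CK libraries themselves ran from -0.10 to 0.07 in the higher and from -0.13 to 0.12 in the lower genes. Cd replicate 1 thus lay above them in the higher genes and within them in the lower genes.

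On a scale where the CK mean is 0 and the mean of Cd replicates 2 and 3 is 1, Cd replicate 1 had a median position of 0.18 in the higher and 0.08 in the lower genes. It was past the 0.5 mark in 47 of 263 higher genes and in 21 of 229 lower genes. It lay beyond all 3 CK libraries on the side of the other Cd libraries in 53.2% of the higher and 42.8% of the lower genes. Over all genes tested it lay above the CK libraries in 25.5% and below them in 23.9%. It lay beyond CK on the opposite side in 15.6% of the higher and 23.1% of the lower genes. The genes were called against the same CK libraries, so these shares are given without a test.

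The Cd + N libraries had the same Cd. They entered that fit through the filter, the scaling and the spread, but not through the comparison of Cd with CK. In these genes they lay farther from CK than Cd replicate 1 did. In the 263 higher genes their median difference from the CK mean was 1.23, 1.29 and 1.06 in replicates 1, 2 and 3. In the 229 lower genes it was -0.78, -0.80 and -0.55. These differences use the same CK libraries as the Cd values, and whether Cd + N and Cd differed in these genes was not tested here.

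**Figure D3:**
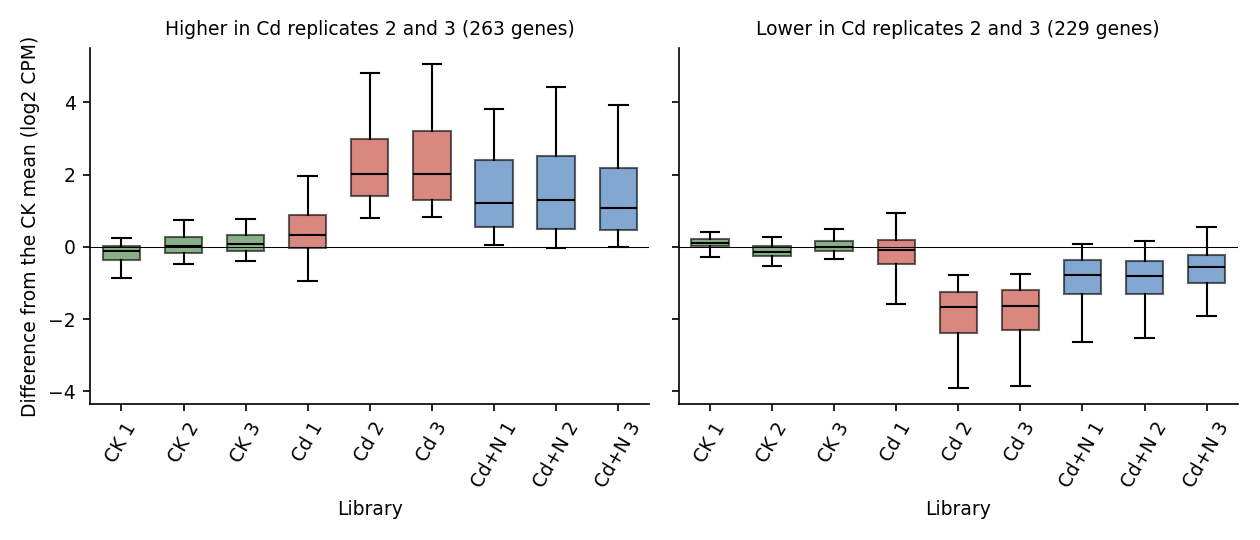
Difference of each library from the CK mean in log2 CPM, over the 263 genes higher (left) and the 229 lower (right) in Cd replicates 2 and 3 at an adjusted p under 0.05. Boxes hold the middle 50% of genes with the median as a line, whiskers run from the 5th to the 95th percentile. The median of Cd replicate 1 is 0.32 on the left and -0.09 on the right, against 2.03 and -1.65 for Cd replicate 2.

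Each of the 6 libraries was then left out in turn, and its position was read on the 500 genes with the smallest p in the other 8 libraries. The scale runs from 0 at the mean of the other CK libraries to 1 at the mean of the other Cd libraries. Left-out CK replicates 1, 2 and 3 had median positions of 0.15, 0.31 and 0.35, and Cd replicates 2 and 3 had 0.83 and 0.97. Each of these 5 libraries was nearer to its own group in 63.2% to 82.0% of its genes. Cd replicate 1 had a median position of 0.13 and was nearer to the Cd libraries in 13.8% of its genes. For Cd replicate 1, 492 of the 500 genes were those described above, so its position here repeats that result and is no further measure of it. The labels hold no further record of its treatment.

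**Figure D4:**
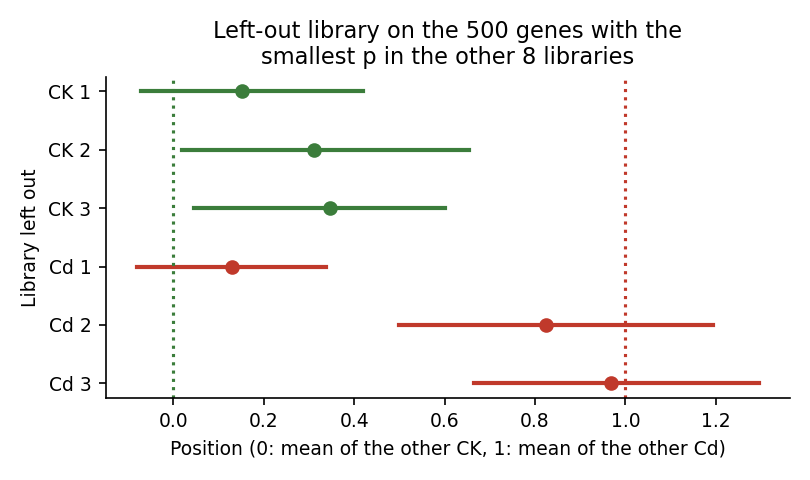
Position of each left-out library between the other CK libraries (0) and the other Cd libraries (1), over the 500 genes with the smallest p in the remaining 8 libraries. Points are medians and lines hold the middle 50% of genes. Cd replicate 1 lies at 0.13, beside CK replicate 1 at 0.15, while Cd replicates 2 and 3 lie at 0.83 and 0.97.

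In some genes Cd replicate 1 lay with the other Cd libraries. The 4 described here had the smallest p among genes whose groups did not overlap and whose mean was at least 1 CPM, 2 higher and 2 lower in Cd. By this rule every Cd library lies outside the CK range in each of the 4, so that is no result. What their products do cannot be given without an annotation. In the 9-library edgeR fit each had an adjusted p of 0.184, so none was past the threshold.

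Potri.004G234900.v3.0 had the widest difference of the 4, with 11.3, 21.7 and 24.3 CPM in CK replicates 1, 2 and 3, and 1.17, 1.86 and 1.84 CPM in Cd. All Cd libraries lay far below CK, and Cd replicate 1 was the lowest. The means were 19.1 ± 6.88 and 1.62 ± 0.393 CPM (SD, n = 3 each), and edgeR gave a log2 fold change of -3.55 ± 0.405 (approximate SE). In Cd + N it had 12.4, 27.0 and 18.6 CPM, which is within or just above the CK range.

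Potri.003G172400.v3.0 had 9.88, 11.2 and 12.3 CPM in CK and 2.40, 2.31 and 2.35 CPM in Cd. The Cd libraries were nearly equal to each other, with a mean of 2.35 ± 0.0481 CPM against 11.1 ± 1.20 in CK (SD, n = 3 each). The Cd values rest on 70, 87 and 92 counts, and the gene was chosen by its small p. Their closeness is therefore no measure of how much the gene varies between Cd libraries. The log2 fold change was -2.24 ± 0.271 (SE). In Cd + N the gene had 5.59, 7.11 and 11.4 CPM, above every Cd library.

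Potri.008G213100.v3.0 was higher in Cd. It had 4.50, 4.07 and 6.06 CPM in CK and 32.6, 17.5 and 31.0 CPM in Cd, where Cd replicate 1 was the highest library and Cd replicate 2 the lowest. The means were 4.87 ± 1.05 and 27.0 ± 8.30 CPM (SD, n = 3 each), and the log2 fold change was 2.47 ± 0.311 (SE). The Cd + N libraries, at 14.2, 15.8 and 9.24 CPM, lay between the groups. Per length this gene was the most abundant of the 4 in Cd leaves, with a mean of 49.2 FPKM, against 19.7, 1.26 and 0.374 FPKM for the others.

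Potri.014G037900.v3.0 had 7.66, 6.22 and 8.78 CPM in CK and 24.0, 33.8 and 31.5 CPM in Cd. Here Cd replicate 1 was the lowest Cd library but still well above CK. The means were 7.55 ± 1.28 and 29.7 ± 5.14 CPM (SD, n = 3 each), with a log2 fold change of 1.98 ± 0.250 (SE). In Cd + N it had 20.7, 15.4 and 11.5 CPM, again between CK and Cd.

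Without Cd replicate 1 the log2 fold changes of these genes were -3.35 for Potri.004G234900.v3.0, -2.25 for Potri.003G172400.v3.0, 2.33 for Potri.008G213100.v3.0 and 2.12 for Potri.014G037900.v3.0. Their adjusted p by edgeR was then between 0.024 and 0.031, past the threshold for each. The adjusted p was smaller although the unadjusted p was larger in each gene, from 4.73e-05 to 0.00016 against 1.55e-05 to 3.35e-05 with all 3 Cd libraries, since more genes then had a small p. Each SE was derived from the log2 fold change and the F of the test and is approximate.

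**Figure D5:**
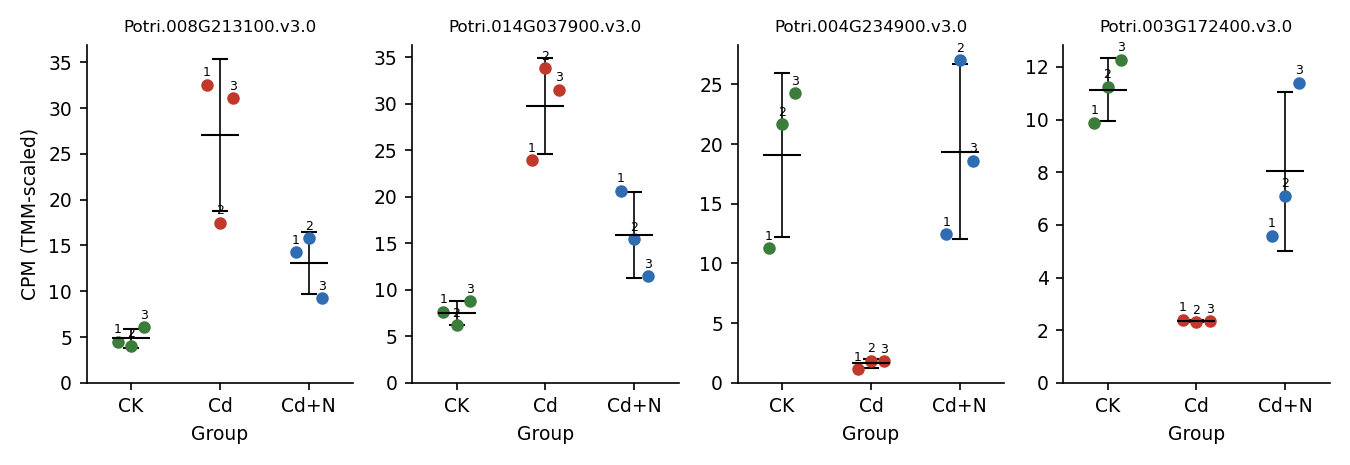
CPM of 4 genes in each library of CK, Cd and Cd + N, numbered by replicate, with the group mean and SD (n = 3). All Cd libraries lie outside the CK range in each gene, as the rule that chose the genes required. In Potri.008G213100.v3.0 Cd replicate 1 is the highest of all at 32.6 CPM.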

How the data were processed

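Leaf RNA was sequenced in 9 libraries with an Illumina TruSeq kit. The authors deposited counts per gene, without normalization, and FPKM values. For each gene the FPKM was proportional to the count over the library total (relative tolerance 1e-06), and each of the 34971 lengths recovered from this could be divided by 3. They were not compared with an annotation, so whether they are coding lengths of single transcripts is not known here. The submitters' processing notes name TopHat2 2.0.12 and Bowtie2 2.0.6. For the counting tool, its use of strand and the genome build, the entry is: not given in the sources used here. So reads shared between paralogs may have been split in an unknown way.

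The software was edgeR 4.0.16, DESeq2 1.42.0 and limma 3.58.1 under R 4.3.3, with plots by matplotlib 3.10.9. Genes passing filterByExpr (minimum count 10, minimum total 15) were scaled by TMM and fitted by edgeR's quasi-likelihood model to 9 libraries, or 8 without Cd replicate 1, with Benjamini-Hochberg adjustment over all genes tested. The paper names no test for its transcriptome. Log2 CPM has a prior count of 2. All genes were the members, the 4 genes named were taken by the rule given with them, and both the comparison and the omission of Cd replicate 1 were chosen with earlier results of these data known. Lists of pathway genes were not used because the identifiers carry no names. Replicates differed by far more than sampling noise (chi-square per degree of freedom at least 39.9). The scripts were tested on simulated data. Proteins were not analysed here.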

Additional observations from a re-analysis of the deposited data

How the results depend on the processing

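With all 3 Cd libraries, edgeR's 0 was also found with upper-quartile factors, every gene unfiltered, the 6 CK and Cd libraries alone, limma-voom and limma on log2(FPKM + 1), filtered or not, and on log2(FPKM + 0.1). DESeq2 gave 627 genes and limma-voom with sample weights 2811, and the fits that each lack a library gave from 0 to 499. The 2706 genes at an unadjusted p became 9165 by limma-voom with sample weights and ranged between 1610 and 5843 with a library left out, with 1652 if this was CK replicate 1, 1756 if Cd replicate 2, 1610 if Cd replicate 3 and 5843 if Cd replicate 1.

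Without Cd replicate 1, the 499 genes became 3166 by DESeq2 (1376 up, 1790 down), 209 from the CK and Cd libraries alone (110 up, 99 down) and 3362 by limma-voom with sample weights (1774 up, 1588 down). They were 460 with upper-quartile factors, 480 unfiltered and 417 by limma-voom, and with a further library left out they ranged from 1 to 423. Of the 499, 171 were among the 209 and 498 among the 3166. What caused these differences was not tested.

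A replicate block gave 4 genes with all 3 Cd libraries and 687 without Cd replicate 1, and 361 of the 499 were among the latter. Deviations of same-numbered CK and Cd libraries from their group means correlated at 0.40, 0.39 and 0.05 for numbers 1, 2 and 3. Those of unlike numbers ran from -0.38 to 0.10, and CK replicate 3 correlated best with Cd replicate 1. The labels and the paper name no block, so the numbers were not treated as pairs in the main fit. Whether same-numbered libraries share a source cannot be told from the labels.

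Chosen for groups that did not overlap, the 4 named genes could hardly reverse. Their log2 fold changes kept direction in all 19 other settings. The adjusted p was under 0.05 in 3 of these for Potri.008G213100.v3.0, Potri.014G037900.v3.0 and Potri.003G172400.v3.0 and in 4 for Potri.004G234900.v3.0, DESeq2 included, and reached up to 0.528. On the log2(FPKM + 1) scale the change of Potri.004G234900.v3.0 was -1.85. The share of distance between the groups ran from 26.0% to 49.9% with each library left out, with an exact permutation p of 0.1 to 0.5. The largest share and the smallest p were those without Cd replicate 1, which was left out because of its values. The median standard error of 0.28 on the log2 scale limits what could be detected for single genes.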
